A study of Mus musculus with 7 samples.

Results

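Cholesterol synthesis in mouse liver was described through the SREBP2 target genes Hmgcs1, Sqle, Idi1, Fdft1, Lss, Cyp51 and Insig1, which were taken by symbol from the gene tables of 7 liver RNA libraries. Of the 7 listed genes 6 had a row in the tables, and all 6 were among the 15744 genes tested. Hmgcs1, the cytosolic synthase at the head of the mevalonate pathway, had no row under that symbol and was not analysed here. The groups were 1 library of liver in which Myod1 was activated (Myod1_active), 2 control libraries of that experiment (Myod1_control), 2 libraries of SunTag-dCas9 mice (SunTag) and 2 of wild-type mice (WT), all of strain C57BL/6. Per the series design the activated and control livers of the Myod1 experiment also came from SunTag-dCas9 mice, so the SunTag-dCas9 transgene was shared by all groups except WT. In dCas9 the nuclease is inactive, so guide RNAs bring it to a locus without a cut, and the SunTag array of peptide epitopes then gathers many copies of an antibody-fused effector there. The guide RNAs, the effector, the promoter that drives the transgene, how the controls were treated, and the age, sex, feeding state and time of sampling of the mice are not stated in the labels used here. The labels number the libraries as replicates but do not tie them to individual mice. The p-values below therefore reflect library-to-library spread, and this may be technical.

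Animal cells make cholesterol from acetyl-CoA through mevalonate, isoprenoid diphosphates, squalene and lanosterol. When sterols are plentiful, INSIG proteins hold the SCAP protein and its cargo SREBP2 in the endoplasmic reticulum. When sterols fall, SREBP2 is carried to the Golgi and cut by the proteases encoded by Mbtps1 and Mbtps2, and the released part enters the nucleus and raises transcription of the enzymes of the pathway and of Insig1, which thereby feeds back on its own activator. Liver is a main site of this synthesis, and the related factor encoded by Srebf1 drives fatty acid synthesis there.

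The promoters of the members are shown because the genes are grouped by a shared regulator. The relation of these promoters to the levels given below was not tested. RefSeq promoter windows, 250 bases before to 50 bases after the annotated start on build GRCm38.p6, were matched by symbol for 5 of the 7 listed genes, and those of Sqle and Fdft1 were not used here. The 4 windows of genes with expression values are printed 5′ to 3′ on the strand of the gene, with matches to the SREBP-binding pattern TCACCNCA and to the CCAAT box, the element bound by NF-Y, in capitals on either strand (a CCAAT box on the other strand reads ATTGG).
Cyp51, chr5:4104648-4104947, minus strand: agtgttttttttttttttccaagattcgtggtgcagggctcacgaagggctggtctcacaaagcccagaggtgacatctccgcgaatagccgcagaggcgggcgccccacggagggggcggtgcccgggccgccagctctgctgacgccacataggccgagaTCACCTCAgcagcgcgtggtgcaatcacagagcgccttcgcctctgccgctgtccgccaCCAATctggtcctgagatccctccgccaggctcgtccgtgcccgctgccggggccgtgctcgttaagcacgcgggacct
Idi1, chr13:8885356-8885655, plus strand: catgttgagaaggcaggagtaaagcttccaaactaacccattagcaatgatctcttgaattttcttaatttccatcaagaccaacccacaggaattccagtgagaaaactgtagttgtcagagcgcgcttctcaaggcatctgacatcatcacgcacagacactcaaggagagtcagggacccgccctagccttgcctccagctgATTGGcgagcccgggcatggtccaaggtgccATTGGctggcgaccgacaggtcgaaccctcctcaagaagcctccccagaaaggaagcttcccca
Lss, chr10:76531355-76531654, plus strand: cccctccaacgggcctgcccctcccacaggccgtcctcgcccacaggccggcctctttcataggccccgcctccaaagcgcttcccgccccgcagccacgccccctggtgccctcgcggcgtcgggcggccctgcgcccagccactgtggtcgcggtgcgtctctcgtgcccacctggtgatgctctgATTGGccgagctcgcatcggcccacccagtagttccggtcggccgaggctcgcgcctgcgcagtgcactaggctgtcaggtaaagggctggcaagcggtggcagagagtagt
Insig1, chr5:28071162-28071461, plus strand: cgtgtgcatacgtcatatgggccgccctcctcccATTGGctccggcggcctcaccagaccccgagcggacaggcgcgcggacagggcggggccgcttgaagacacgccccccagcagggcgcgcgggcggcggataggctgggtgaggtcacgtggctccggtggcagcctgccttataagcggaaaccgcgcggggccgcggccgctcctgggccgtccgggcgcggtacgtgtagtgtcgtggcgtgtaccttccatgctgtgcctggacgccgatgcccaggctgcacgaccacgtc

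All 5 windows, that of Hmgcs1 included, held a CCAAT box, which 37.4% of 32851 promoters of the same length held. All 5 also held the GC box GGGCGG on either strand, bound by Sp1 and found in 35.7% of all promoters. The pattern TCACCNCA, chosen after these windows had been read, was present in Cyp51, with its first base at position -88 from the start, and in Hmgcs1, at -137, against 4.42% of all promoters. Insig1 was the only one of the 5 with the E-box CACGTG, at position -101, a motif of 7.15% of all promoters. These matches describe letters in a short window and do not show binding.

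Expression was given as FPKM, a fragment count scaled by transcript length and by library size, so levels can be compared between genes per length. Read depth was unknown. Each library had between 12971 and 13804 gene symbols at an FPKM of at least 1. Myod1 itself was at 3.52 FPKM in Myod1_active and listed at 0 in the other 6 libraries. The hepatocyte genes Alb, Apoa1, Ttr, Hnf4a, Cyp2e1 and Cps1 summed to 39715 FPKM in Myod1_active and to between 44442 and 74613 FPKM in the other 6 libraries, so the markers of the labelled tissue were abundant throughout. The 3 libraries of the Myod1 experiment had 0.00420 to 0.324 FPKM of Xist and 2.93 to 37.3 FPKM of Ddx3y, Eif2s3y and Kdm5d, against 56.9 to 82.2 FPKM of Xist and 0 to 0.531 FPKM of those Y-linked genes in the 4 SunTag and WT libraries. Experiment and sex therefore cannot be told apart in any comparison of Myod1_control with SunTag. In bulk RNA, fewer cells of a type and less RNA per cell cannot be told apart either.

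All 6 measured members were expressed in every library, and their mean log2(FPKM + 1) lay 2.75 to 3.66 above the median gene of the library. Insig1 was the highest member in 7 of 7 libraries, at 103 to 210 FPKM. The enzymes lay between 23.0 and 122 FPKM. The order among them changed with the library. In the 4 SunTag and WT libraries Cyp51, Idi1 and Fdft1 followed Insig1 in that order and Sqle and Lss were lowest, while in the 3 libraries of the Myod1 experiment Lss stood next to Cyp51, above or below it, and Sqle and Fdft1 were lowest. Cyp51 and Idi1, neighbours in that order, averaged 62.5 ± 1.68 and 58.9 ± 3.82 FPKM in SunTag and 60.0 ± 16.4 and 48.6 ± 10.6 FPKM in WT (SD, n = 2 each), and their values overlapped in both groups. Sqle and Lss likewise overlapped in SunTag and in WT. Insig1 overlapped no enzyme in SunTag or WT, while in Myod1_control the lower Insig1 value lay below the higher Lss value.

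Idi1 (ENSMUSG00000058258, chromosome 13, 8884747 to 8891697 on mm9), the isomerase that supplies the reactive isoprenoid unit, was at 53.9 FPKM in Myod1_active, 31.5 and 60.1 in Myod1_control, 56.2 and 61.5 in SunTag and 56.1 and 41.1 in WT. Both SunTag libraries lay above both WT libraries, with 56.15 and 56.07 FPKM for the nearest pair. Fdft1 (ENSMUSG00000021273, chromosome 14, 63763990 to 63796630), squalene synthase, was at 45.9 FPKM in Myod1_active, 30.0 and 50.4 in Myod1_control, 36.1 and 53.5 in SunTag and 42.3 and 38.5 in WT. The lowest value was in Myod1_control replicate 1 and the highest in SunTag replicate 2. The groups overlapped in all 3 comparisons made here, of Myod1_active with Myod1_control, SunTag with WT and Myod1_control with SunTag. The end of the abundant protease gene Ctsb (110 to 188 FPKM, ending at 63764758) overlaps the Fdft1 span, and no source used here says whether counting used strand, so Fdft1 is uncertain to that extent.

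Sqle (ENSMUSG00000022351, chromosome 15, 59146632 to 59162747), squalene epoxidase, a rate-limiting oxygenase of the pathway, was at 45.9 FPKM in Myod1_active, 30.7 and 47.2 in Myod1_control, 27.8 and 35.2 in SunTag and 36.0 and 23.0 in WT. The groups again overlapped in all 3 comparisons, and Myod1_active and Myod1_control replicate 2 were the highest libraries. Lss (ENSMUSG00000033105, chromosome 10, 75994333 to 76019883), which closes squalene epoxide into the sterol ring system of lanosterol, was at 75.7 FPKM in Myod1_active, 59.3 and 122 in Myod1_control, 32.3 and 45.9 in SunTag and 27.5 and 25.8 in WT. Lss had the widest range of the 6, 4.75-fold from the lowest to the highest library, against 1.71-fold to 2.05-fold for the others, and its libraries of the Myod1 experiment lay above all of SunTag and WT. Its span overlaps that of the transcript 4930483K19Rik, at 1.21 to 3.17 FPKM, and its value lay outside its own deposited bounds in 4 of 7 libraries.

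Cyp51 (ENSMUSG00000001467, chromosome 5, 4081145 to 4104746), the cytochrome P450 that removes a methyl group from lanosterol, was at 61.4 FPKM in Myod1_active, 59.3 and 82.7 in Myod1_control, 61.3 and 63.7 in SunTag and 71.6 and 48.4 in WT. The groups overlapped in the 3 comparisons and the range was the narrowest of the 6. Insig1 (ENSMUSG00000045294, chromosome 5, 28397952 to 28405201), the retention protein that is itself an SREBP2 target, was at 210 FPKM in Myod1_active, 103 and 196 in Myod1_control, 129 and 207 in SunTag and 183 and 159 in WT. Myod1_active had the highest Insig1 value of all libraries, close to that of SunTag replicate 2. All 7 Insig1 values lay outside their own deposited bounds, so those bounds were not used as errors.

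**Figure D1:**
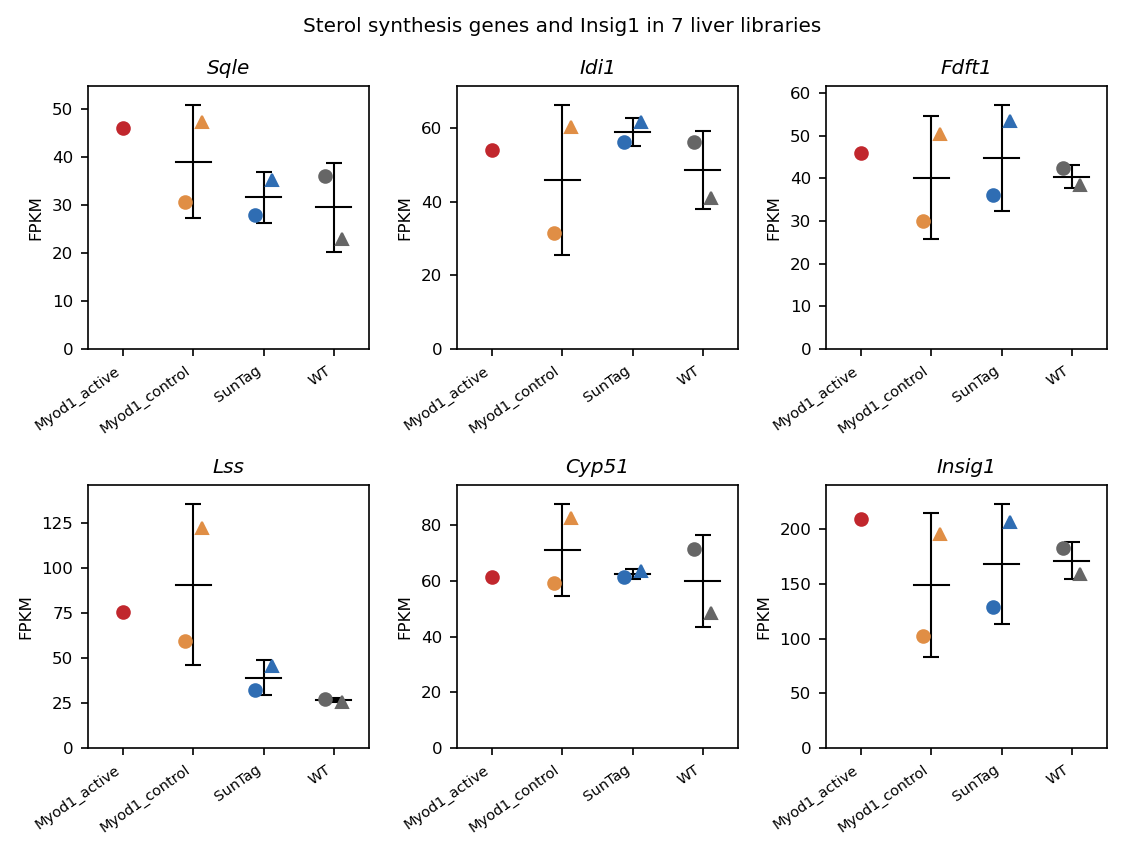
FPKM of the 6 measured members (y axis, from 0) in each library, by group on the x axis. Circles are replicate 1, triangles replicate 2, bars the mean and whiskers the SD of groups with 2 libraries. Lss reached 122 FPKM in Myod1_control replicate 2 and stayed at or below 45.9 FPKM in SunTag and WT, while the 2 Myod1_control libraries stood apart for all 6 genes.

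All 6 genes moved in the same direction between the 2 libraries of a group. In Myod1_control every member was higher in replicate 2 than in replicate 1, by 1.39-fold for Cyp51, 1.54-fold for Sqle, 1.68-fold for Fdft1, 1.91-fold for both Idi1 and Insig1 and 2.06-fold for Lss. On the log2(FPKM + 1) scale, with the median gene of the pair taken off, the median difference of the 6 was 0.82, and 7.33% of all genes tested differed by at least that much in either direction. The median absolute difference of all genes was 0.20. In SunTag all 6 were again higher in replicate 2, by 1.04-fold (Cyp51) to 1.60-fold (Insig1), with a median of 0.42, a size that 30.2% of all genes reached. In WT all 6 were lower in replicate 2, with ratios to replicate 1 between 0.638 (Sqle) and 0.936 (Lss) and a median of -0.27, which 27.3% of all genes reached. These 6 genes share their libraries and are not independent of each other, and with 2 libraries a group the split carries no test.

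**Figure D2:**
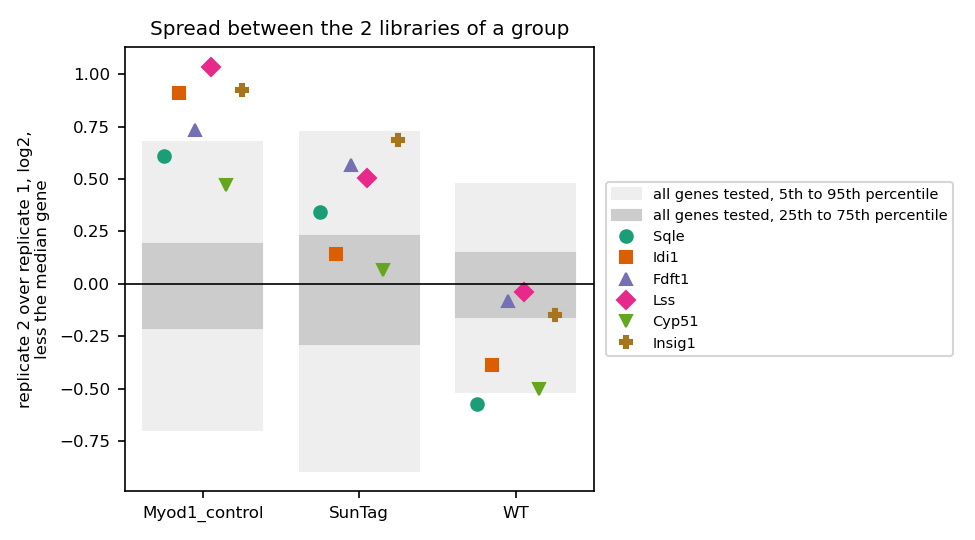
Log2 ratio of replicate 2 to replicate 1, less that of the median gene (y axis), for the 6 members in the 3 groups with 2 libraries (x axis). Dark and light grey boxes give the middle and the wider range of all genes tested, by the percentiles in the legend. All 6 members lie above 0 in Myod1_control, from 0.47 for Cyp51 to 1.03 for Lss, and in SunTag, and all 6 lie below 0 in WT.

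Most other enzymes of the pathway were also higher in replicate 2 in Myod1_control and SunTag, and in WT they were divided. The list ran from Acat2 and Mvk at the start of the route to Dhcr7 at its end, with 15 enzymes expressed enough to test. In Myod1_control 13 of the 15 were higher in replicate 2 (median 0.27), in SunTag 12 of 15 (median 0.39) and in WT 6 of 15 (median -0.10). Fatty acid synthesis genes under SREBP1, a list with Fasn (fatty acid synthase) and Acaca (acetyl-CoA carboxylase), were higher in replicate 2 for 12 of 12 in Myod1_control (median 0.59), 11 of 12 in SunTag (median 0.55) and 10 of 12 in WT (median 0.37). In WT most fatty acid genes and all 6 sterol members thus lay on opposite sides. Fasn was at 174 and 380 FPKM in Myod1_control, 120 and 338 in SunTag and 220 and 317 in WT. The summed markers of other cell types within the Myod1_control pair were 47.4 and 51.0 FPKM for endothelial cells, 25.8 and 33.7 for Kupffer cells and 20.6 and 14.9 for stellate cells. In the SunTag pair replicate 1 was the higher for Kupffer cells (233 and 157 FPKM) and stellate cells (153 and 84.6 FPKM). It was also the higher for lymphocytes (10.4 and 6.13 FPKM) and red cells (3800 and 2307 FPKM). Its sums were the lower for endothelial cells (162 and 178 FPKM) and bile duct cells (cholangiocytes, 6.65 and 7.04 FPKM), but both lists were divided. Pecam1 and Stab1 of the endothelial list were higher in replicate 1. Among bile duct markers Krt19 (3.37 and 2.26 FPKM) and Krt7 (1.54 and 0.966 FPKM) were higher in replicate 1. Sox9 (1.38 and 2.83 FPKM) and Epcam (0.361 and 0.990 FPKM) were lower. All 6 members were lower in SunTag replicate 1. The WT pair had 176 and 164 FPKM for endothelial cells, 142 and 181 for Kupffer cells and 82.2 and 88.8 for stellate cells. The part of these cell types in the splits was not tested.

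**Figure D3:**
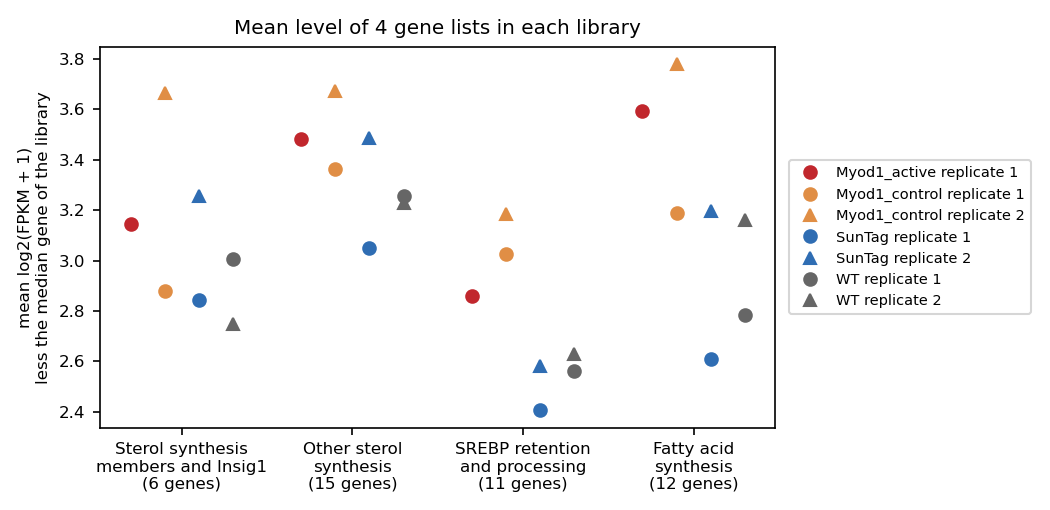
Mean log2(FPKM + 1) of each list, less the median gene of the library (y axis), for 4 gene lists (x axis), with 1 symbol per library. For the members, Myod1_control replicate 2 was highest at 3.66 and WT replicate 2 lowest at 2.75, and for fatty acid synthesis SunTag replicate 1 was lowest at 2.61.

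Activation of Myod1 was compared with its controls to ask what changed in liver. Relative to the median gene, which itself differed by 0.25 in log2 between these groups, Insig1 differed by 0.31, Idi1 by 0.05, Sqle by 0.01, Fdft1 by -0.02, Lss by -0.42 and Cyp51 by -0.44. By limma's adjusted p 0 of 6 members passed, where 0.254% of all genes did (0.216% higher and 0.0381% lower), and 0 of 6 had an unadjusted p under 0.05, where 19.5% of all genes had one. The lowest adjusted p was 0.525, for Insig1, at 210 FPKM in Myod1_active and 149 ± 65.9 FPKM in Myod1_control (SD, n = 2). The 95% intervals were wide, from -0.92 to 1.53 for Insig1 and from -1.25 to 0.38 for Cyp51, and all 6 held 0. Myod1_active lay between its 2 controls for 5 members and above both for Insig1 alone, while for 78.0% of all genes it lay outside the range of the controls, 61.4% above and 16.6% below. The values depended on the control library. Relative to the median gene, without Myod1_control replicate 1 the differences were -0.30 for Sqle, -0.41 for Idi1, -0.39 for Fdft1, -0.94 for Lss, -0.68 for Cyp51 and -0.16 for Insig1. Without replicate 2 they were 0.32, 0.51, 0.36, 0.10, -0.19 and 0.78 for the same genes, so 5 of the 6 turned sign and Cyp51 did not. The activated arm held 1 library, so it had no replicate check. For 1 library against 2 the smallest two-sided p of an exact permutation test, taken as the one-sided p doubled, is 0.667.

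Around the members, the sterol pathway gave no call either in that comparison. Of 15 other enzymes 0 passed limma's test and 0 had an unadjusted p under 0.05, with a median of 0.02 relative to the median gene. Mvk, mevalonate kinase, was at 37.6 FPKM in Myod1_active and 20.9 ± 4.54 FPKM in Myod1_control (SD, n = 2, adjusted p = 0.283). Among 11 regulators of SREBP retention and processing 0 passed and 3 had an unadjusted p under 0.05. Insig2, the second INSIG retention protein of the endoplasmic reticulum, was at 242 FPKM in Myod1_active and at 517 and 538 FPKM in Myod1_control, a difference of -1.38 relative to the median gene (SE 0.195, adjusted p = 0.152). It thus lay below both controls while Insig1 lay above both. Vcp, a segregase that extracts ubiquitinated proteins from the endoplasmic reticulum, was at 91.0 FPKM in Myod1_active and at 126 and 155 FPKM in Myod1_control (adjusted p = 0.203). Srebf1 was at 856 FPKM in Myod1_active and at 307 and 644 FPKM in Myod1_control (adjusted p = 0.407).

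Of 12 fatty acid synthesis genes 0 passed in that comparison and 2 had an unadjusted p under 0.05, with a median of 0.13. Scd1, the stearoyl-CoA desaturase, was at 3390 FPKM in Myod1_active and 1689 ± 174 FPKM in Myod1_control (adjusted p = 0.176), Thrsp, a regulator of lipogenesis, at 193 FPKM in Myod1_active and 94.4 ± 14.6 FPKM in Myod1_control (adjusted p = 0.161), and Fasn at 673 FPKM in Myod1_active and 277 ± 146 FPKM in Myod1_control (adjusted p = 0.361, SD, n = 2 controls each). For all 3 genes Myod1_active lay above each of the other 6 libraries. The isoprenoid branch genes lead from the same precursors to ubiquinone, dolichol and prenylated proteins, and had a median of 0.42. By limma 0 of 9 passed and 5 had an unadjusted p under 0.05, where 19.5% of all genes had one. Those p-values test the difference before the median gene is taken off. Relative to the median gene, the 95% interval left out 0 for Icmt alone (0.054 to 1.52). The medians were -0.22 for sterol uptake and transport (0 of 11 passed) and -0.04 for sterol export and esterification (0 of 9 passed). Endothelial markers in the same comparison summed to 34.3 FPKM in Myod1_active and to 47.4 and 51.0 FPKM in Myod1_control. Summed stellate markers (14.7 against 20.6 and 14.9 FPKM) and red cell markers (37.9 against 45.5 and 39.5 FPKM) were also below both controls. Of 5 tested stellate markers 3 lay below both controls and 1, Col1a1, above both (6.74 against 4.33 and 2.83 FPKM). Of 3 red cell markers 2 lay below both and 1, Hbb-b1, above both (3.18 against 0.638 and 0 FPKM). Kupffer cell markers (34.4 against 25.8 and 33.7 FPKM) and lymphocyte markers (1.05 against 0.434 and 0.862 FPKM) were above both. Summed cholangiocyte markers (9.44 against 6.86 and 9.63 FPKM) lay between the controls. The part of these cell types was not tested.

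**Figure D4:**
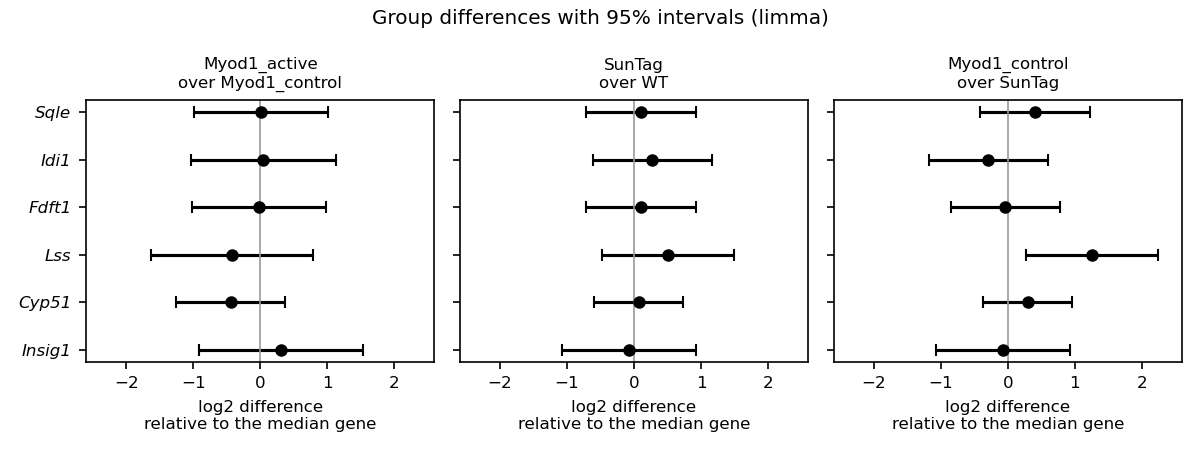
Log2 difference of each member relative to the median gene (x axis) in 3 comparisons, with 95% intervals from limma. The interval of Lss in Myod1_control over SunTag, 0.27 to 2.25, is the only one of 18 that leaves out 0, before adjustment over all genes.

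SunTag-dCas9 liver was compared with wild-type liver to ask whether the transgene altered expression. By limma 0 of 6 members passed, where 0.127% of all genes did (0.0508% higher and 0.0762% lower), and 0 of 6 had an unadjusted p under 0.05, where 1.95% of all genes had one. Lss averaged 39.1 ± 9.59 FPKM in SunTag and 26.6 ± 1.24 FPKM in WT (SD, n = 2 each), a difference of 0.50 relative to the median gene (SE 0.382, adjusted p = 1). Idi1 differed by 0.27, Fdft1 and Sqle by 0.11 and 0.10, Cyp51 by 0.07 and Insig1 by -0.08, and their intervals all held 0. The SunTag libraries did not overlap WT for Idi1 and Lss, both higher, where 13.0% of all genes lay higher without overlap, 12.8% lower and 25.8% in either direction. With 2 libraries on each side the smallest two-sided p of an exact permutation test is 0.333. Of 15 other sterol enzymes, 11 regulators and 12 fatty acid genes 0 passed in each list and 0 had an unadjusted p under 0.05, with medians of -0.03, -0.09 and 0.02. The red cell markers Hba-a1, Hbb-b1 and Alas2 summed to 3800 and 2307 FPKM in SunTag and to 1391 and 1375 FPKM in WT, and the part of blood in these values was not tested.

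The controls of the Myod1 experiment were set against the SunTag libraries as a background, since both are SunTag-dCas9 liver without activated Myod1. Here 24.3% of all genes passed limma's test, 7.30% higher and 17.0% lower, and 0 of 6 members did. The 1149 higher and 2683 lower genes became 1589 and 2015 with median-ratio scaling and 1757 and 1764 with quantile normalization. The number of calls fell to 48 without either WT library, to 135 or 127 without Myod1_control replicate 1 or 2, and to 939 without SunTag replicate 1. Lss came nearest, at 90.8 ± 44.6 FPKM in Myod1_control and 39.1 ± 9.59 FPKM in SunTag (SD, n = 2 each), a difference of 1.26 relative to the median gene (SE 0.382, unadjusted p = 0.0326, adjusted p = 0.0899). It was the only member with an unadjusted p under 0.05, a level that 41.7% of all genes reached, and the only one whose groups did not overlap, where 24.9% of all genes lay higher without overlap, 41.6% lower and 66.6% in either direction. With genes spanning less than 300 bp left out of the fit it passed (adjusted p = 0.0447). The other 5 members differed by between -0.29 (Idi1) and 0.41 (Sqle), with adjusted p-values of 0.392 to 0.721.

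Of 11 regulators of SREBP retention and processing 4 were higher in Myod1_control and 0 lower, where 7.30% of all genes were called higher and 17.0% lower, and the median of the 11 was 0.81. Scap, which escorts SREBP proteins to the Golgi, was at 176 and 150 FPKM in Myod1_control and at 52.0 and 80.4 FPKM in SunTag (adjusted p = 0.0262). Insig2 was at 517 and 538 FPKM in Myod1_control and at 325 and 260 FPKM in SunTag (adjusted p = 0.0270). Mbtps1, the first of the Golgi proteases that cut SREBP proteins, was at 16.4 and 17.6 FPKM in Myod1_control and at 9.45 and 9.46 FPKM in SunTag (adjusted p = 0.0212), and Vcp was at 126 and 155 FPKM in Myod1_control and at 86.2 and 88.5 FPKM in SunTag (adjusted p = 0.0370). In all 4 genes the groups did not overlap, where 24.9% of all genes lay higher without overlap. Both WT libraries also lay below both Myod1_control libraries. The 4 genes were picked by the test on these same libraries, so the lack of overlap adds no support. For Srebf1 the values were 307 and 644 FPKM in Myod1_control and 163 and 283 FPKM in SunTag (adjusted p = 0.167). The 4 calls were lost without either Myod1_control library, without either WT library and in a fit of the 2 groups alone, those of Scap, Mbtps1 and Vcp also without SunTag replicate 1, and that of Vcp also without SunTag replicate 2.

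**Figure D5:**
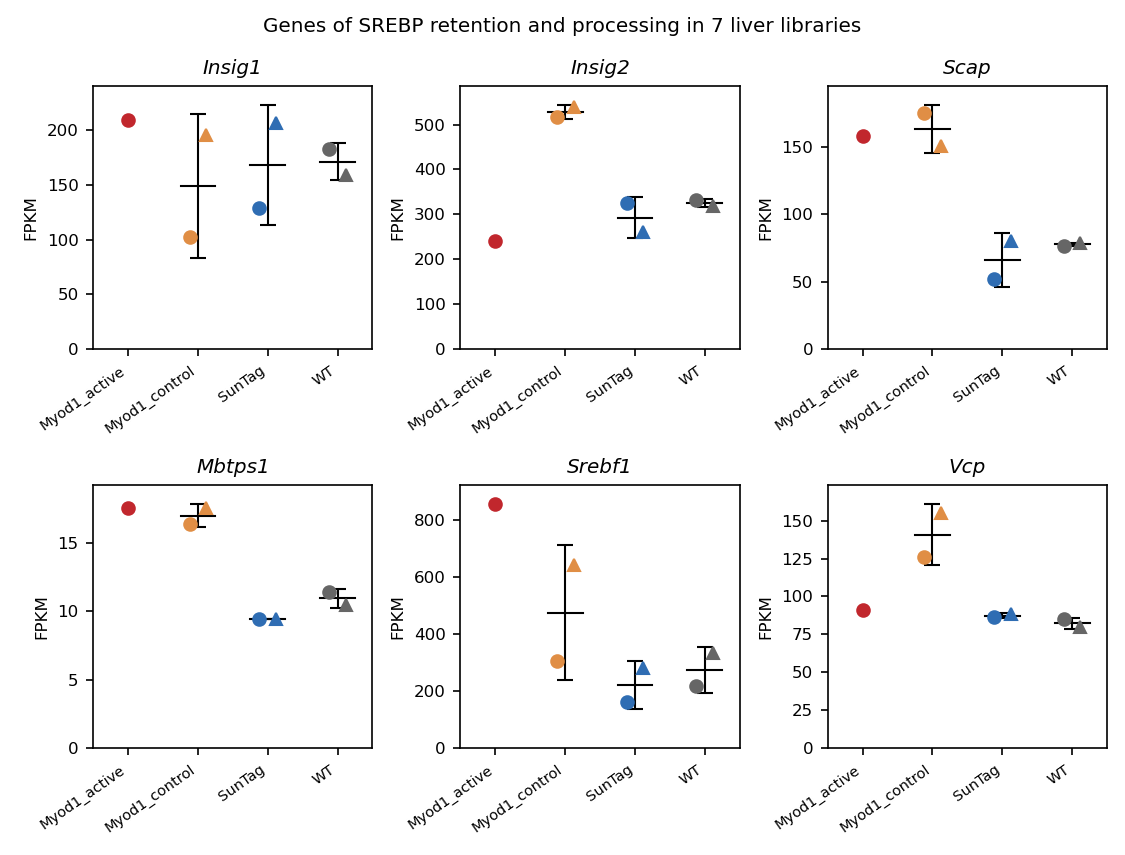
FPKM (y axis, from 0) of Insig1 and of 5 genes of SREBP retention and processing by group, with symbols as in the plot of the members. Insig2 was at 242 FPKM in Myod1_active, against 517 and 538 FPKM in Myod1_control, while Scap and Mbtps1 were above every SunTag and WT library in all 3 libraries of the Myod1 experiment.

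The other lists are read against the same shares, 7.30% of all genes called higher and 17.0% lower, or 24.3% in either direction. In either direction the other sterol enzymes, the export genes and the isoprenoid genes lay below 24.3%. The fatty acid genes lay near it and the uptake and transport genes above it. By direction, the fatty acid genes (3 of 12 higher, 0 lower) lay well above the 7.30% of all genes called higher. The shares called higher among uptake and transport genes (2 of 11) and export genes (1 of 9) also lay above 7.30%. In a list of 9 or 11 genes 1 call already exceeds that share, so little can be read from it. Of the uptake and transport genes 2 of 11 were called lower, near the 17.0% of all genes. Among 15 other sterol enzymes 1 rose in Myod1_control, Dhcr7, the reductase that completes cholesterol, at 96.5 and 108 FPKM against 50.5 and 65.7 FPKM in SunTag (difference 0.95 relative to the median gene, adjusted p = 0.0359), and 14 did not pass. Of 11 sterol uptake and transport genes 2 were higher, Npc1, a lysosomal cholesterol exporter (adjusted p = 0.0143), and Stard4, a cytosolic sterol carrier (adjusted p = 0.0495), and 2 were lower, Npc2, the soluble partner of Npc1 (adjusted p = 0.0208), and Mylip, a ubiquitin ligase induced by LXR (adjusted p = 0.0171). Npc1 was at 33.5 and 34.0 FPKM in Myod1_control and at 10.9 and 12.8 FPKM in SunTag, and Npc2 was at 13.1 and 10.9 FPKM in Myod1_control and at 34.3 and 26.0 FPKM in SunTag. The cholesterol exporter Abca1, at 40.5 and 54.0 FPKM in Myod1_control and 13.0 and 17.0 FPKM in SunTag, was the 1 of 9 export and esterification genes that rose (adjusted p = 0.0183). Of 9 isoprenoid branch genes 1 fell, Fnta, a subunit of protein prenyltransferases (adjusted p = 0.0243). Of 12 fatty acid genes 3 rose, the acetyl-CoA carboxylases Acaca (adjusted p = 0.0191) and Acacb (adjusted p = 0.0199) and the acyltransferase Gpam (adjusted p = 0.0387). None of these calls held without either Myod1_control library, without either WT library or in a fit of the 2 groups alone, with the direction kept each time. Without SunTag replicate 1 all of them except that of Npc1 were lost as well. Stard4 was also lost without SunTag replicate 2, with no filter on low values and with no mean-variance trend, and Dhcr7 and Gpam with no filter.

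The comparison of Myod1_control with SunTag also moved with markers of other cell types. Summed FPKM was 47.4 to 51.0 in Myod1_control and 162 to 178 in SunTag for 6 endothelial markers, 5 of which fell, and 25.8 to 33.7 against 157 to 233 for 6 Kupffer cell markers, 4 of which fell. It was 14.9 to 20.6 against 84.6 to 153 for 5 stellate markers, 4 of which fell, and 0.434 to 0.862 against 6.13 to 10.4 for 4 tested lymphocyte markers, all of which fell, with Nkg7 listed at 0 in both Myod1_control libraries. The globin Hba-a1 was at 0.792 and 1.25 FPKM in Myod1_control and at 1927 and 1233 FPKM in SunTag, and Hbb-b1 was at 0.638 and 0 FPKM in Myod1_control and at 1851 and 1060 FPKM in SunTag. Alas2, the heme synthesis enzyme of red cell precursors and the remaining marker of that list, went the other way, at 44.1 and 38.2 FPKM in Myod1_control and 21.7 and 13.8 FPKM in SunTag (adjusted p = 0.0299). Of 4 tested cholangiocyte markers 1 rose, Sox9, at 5.96 and 7.78 FPKM in Myod1_control and 1.38 and 2.83 FPKM in SunTag, and 1 fell, Krt7. Of 6 hepatocyte markers 1 rose and 0 fell by the test. Their sum, most of it Alb, was 44442 and 46806 FPKM in Myod1_control and 62040 and 62214 FPKM in SunTag. Without overlap, 3 of the 6 lay higher in Myod1_control and 2, Alb and Ttr, lower. Of all genes 24.9% lay higher and 41.6% lower without overlap. The part of these cell types, and of sex, in the calls above was not tested.

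Over the 7 libraries, each member followed the mean of the other 5 with a Pearson's r of 0.82 for Fdft1, 0.80 for Sqle, 0.68 for Insig1 and Cyp51, 0.67 for Idi1 and 0.53 for Lss, on log2(FPKM + 1) less the median gene. Between pairs, Fdft1 and Insig1 were most alike (r = 0.92) and Idi1 and Lss least (r = 0.15). Among 7993 other genes averaging 2 or more on the log2 scale and spanning 300 bp or more, the 5 with the highest r to the mean of the 6 members were Unc119b (0.95), Diap1 (0.91), Agfg2 (0.90), Sh3bp5 (0.90) and Itsn1 (0.89), none of them on the lists of the pathway. Among enzymes of the pathway Nsdhl ranked 52 (r = 0.79), Sc4mol 100 (0.74) and Fdps 139 (0.71) of the 7993, and Insig2 ranked 3033 (0.16), while the median r of all 7993 was 0.0033. These values describe 7 libraries that fall into 2 experiments and share their library depth and composition, and with so few points many genes reach a high r.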

How the data were processed

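Liver RNA was measured in 7 libraries. Per the labels' protocols RNA was extracted with a Direct-zol kit and made into Illumina libraries, and the submitters' processing notes list build mm9 with cutadapt 1.11, TopHat2 2.1.1 and also Cufflinks 2.2.1. Settings, annotation and strand are not given in the sources used here. For each library the authors deposited 1 table of FPKM with 37468 rows. Starts were counted from 0 in the tables, since the span of 4498 of 4747 genes under 300 bp then equalled that of the same gene ID in GENCODE, and are given here counted from 1. Rows without the status OK in any library (343) were left out and rows sharing a symbol were summed (244 symbols). Genes with an FPKM of 1 or more in any library entered the test. limma 3.58.1 (R 4.3.3) was run on log2(FPKM + 1), with 1 mean per group over all 7 libraries, a variance that follows the mean, Benjamini-Hochberg adjustment over all genes and a threshold of 0.05. Differences relative to the median gene had 0.25 (Myod1_active and Myod1_control), 0.01 (SunTag and WT) or -0.14 (Myod1_control and SunTag) taken off, while SE and p-values used the values before that, as do the counts of calls. Differences on this scale understate changes of low genes. No pair of libraries had more than 1 identical value above 0. The code was tested on simulated data. The members, lists, tests and alternatives were chosen with earlier results of these data known. The members were always named, and from each list genes that passed and up to 4 with the largest difference per comparison, of which fewer are named here. Promoters came from RefSeq.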

Additional observations from a re-analysis of the deposited data

How the results depend on the processing

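Under 16 alternatives, 15 changing 1 choice and 1 changing 2, 0 of 6 members passed in Myod1_active against Myod1_control and in SunTag against WT. In Myod1_control against SunTag 1 of 6, Lss, passed with the short genes left out (adjusted p = 0.0447) and with those left out and median-ratio scaling (adjusted p = 0.0336), and 0 under the other 14. The genes called between Myod1_active and Myod1_control (40) were 23 with a pseudocount of 0.1, 253 with no filter, 20 with the short genes left out, 9 with those left out and median-ratio scaling, 0 in a fit of the 2 groups alone (2611 at an unadjusted p under 0.05) and 48 to 122 with 1 library left out. Between SunTag and WT (20) they were 5 in both settings without the short genes and 27 to 78 with 1 library left out. Between Myod1_control and SunTag (3832) they were 48 in a fit of the 2 groups alone and 48 to 4036 with 1 library left out. The cause of these changes was not tested.

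Member differences, before the median gene is taken off, turned sign 12 times between Myod1_active and Myod1_control, 6 times between SunTag and WT and 9 times between Myod1_control and SunTag. In Myod1_active against Myod1_control, median-ratio scaling gave -0.031 for Sqle and -0.062 for Fdft1, quantile normalization -0.017 for Fdft1, and short genes left out with median-ratio scaling -0.037 for Sqle, -0.0021 for Idi1 and -0.068 for Fdft1. With 1 library left out the ranges were -0.039 to 0.57 for Sqle, -0.16 to 0.76 for Idi1, -0.13 to 0.60 for Fdft1, -0.69 to 0.35 for Lss and -0.42 to 0.050 for Cyp51. In SunTag against WT they were -0.20 to 0.43 for Sqle, -0.16 to 0.40 for Fdft1, -0.19 to 0.36 for Cyp51 and -0.40 to 0.27 for Insig1. In Myod1_control against SunTag they were -0.030 to 0.58 for Sqle, -0.88 to 0.032 for Idi1, -0.54 to 0.19 for Fdft1, -0.075 to 0.40 for Cyp51 and -0.67 to 0.26 for Insig1, and quantile normalization gave 0.048 for Fdft1 and 0.17 for Insig1.

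With the replicate number as a block, 23, 15 and 2928 genes were called in the 3 comparisons and Lss differed by 0.071 between Myod1_active and Myod1_control. Of the list genes called between Myod1_control and SunTag, Vcp and Stard4 did not pass in that fit. Same-numbered libraries deviated with correlations of 0.00076 to 0.043, so the numbers were not taken as pairs. Read depth was unknown, so its limit on low values could not be stated.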
